A study of Mus musculus with 4 samples.

Results

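The genes examined here encode the receptors through which natural killer (NK) cells sense interleukin-12 (IL-12) and interleukin-18 (IL-18), the proteins that carry those signals inward, and interferon gamma, the cytokine that both signals induce. There are 9 of them among the 21025 rows of each deposited table, chosen by gene symbol: Il12rb1 and Il12rb2 (IL-12 receptor chains), Il18r1 and Il18rap (IL-18 receptor chains), Il1rl1 (the IL-33 receptor), Tyk2, Stat4 and Myd88 (transducers) and Ifng. The study sequenced RNA of liver NK cells taken by flow sorting from C57BL/6 mice. Of its 4 libraries, 2 hold TRAIL+ cells and 2 hold CD49b+ cells. TRAIL+ cells displayed the death ligand TRAIL and lacked CD49b, an integrin chain, and CD49b+ cells displayed CD49b and lacked TRAIL. In both, the sort took cells without the T-cell receptor beta chain that carried NK1.1 and NKp46. No genotype or treatment is given for the mice, and the labels do not say whether a library is 1 mouse or a pool, or whether the replicates are separate animals. The p-values therefore reflect only how far these libraries vary, and that variation may be technical.

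IL-12 is made by dendritic cells and macrophages and binds a receptor of the chains IL-12Rβ1, on which the kinase TYK2 sits, and IL-12Rβ2, on which JAK2 sits. The kinases phosphorylate STAT4, which enters the nucleus and acts on Ifng. IL-18 binds IL-18Rα, encoded by Il18r1, and the accessory chain encoded by Il18rap, whose inner TIR domains recruit the adaptor MYD88, and IRAK kinases and TRAF6 then lead to NF-κB and stress kinases. The IL-33 receptor ST2, encoded by Il1rl1, is a relative that also signals through MYD88 and is known for its high level in type 2 innate lymphoid cells and mast cells.

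TRAIL+ cells held far less IL-18 receptor RNA than CD49b+ cells, 10.7-fold less Il18r1 and 6.77-fold less Il18rap, and 2.38-fold less Tyk2. Il12rb1 went the other way and was 2.70-fold higher in TRAIL+ cells. Il12rb2, Stat4, Myd88 and Ifng did not pass the test, and Ifng RNA was abundant in all 4 libraries. Levels are in RPKM, reads scaled by gene length and by the mapped reads of the library, as deposited, and folds are ratios of group means of RPKM. Differences are on the log2(RPKM + 1) scale, TRAIL+ minus CD49b+, ± SE, tested with limma over all genes with a Benjamini-Hochberg adjusted p threshold of 0.05. Of the 9 genes, 8 passed the filter on low values (an RPKM of at least 1 in at least 2 libraries), 1 was called higher, 3 were called lower and 4 did not pass the test. Over all 10047 genes tested, 4.76% were called higher and 3.86% lower (8.62% in either direction), with a median difference of 0.0050. The share with an unadjusted p under 0.05 is larger than 8.62% and was not worked out. Counts of listed genes at that p are therefore only descriptions. In bulk RNA, fewer cells that use a gene and less RNA per cell cannot be told apart.

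**Figure D1:**
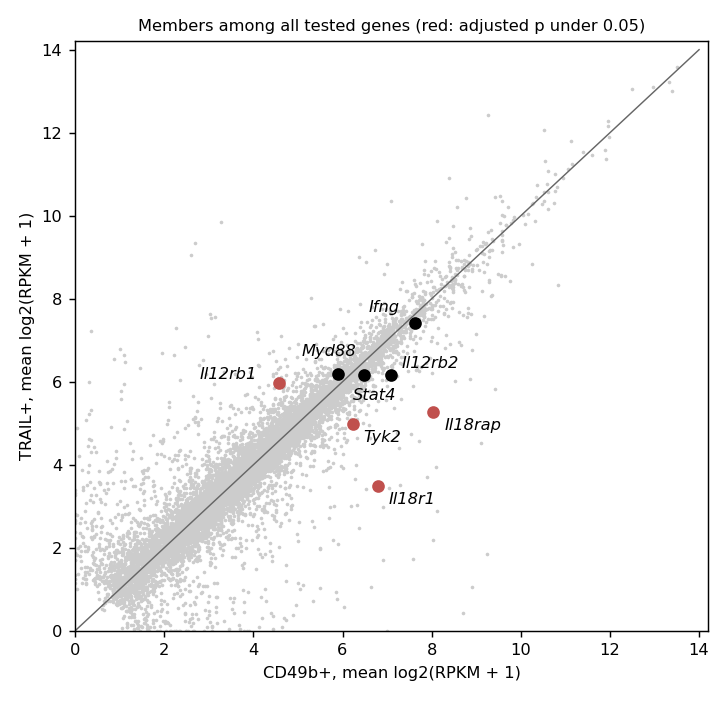
Mean log2(RPKM + 1) of each of the 10047 tested genes in the 2 CD49b+ libraries (x axis) and the 2 TRAIL+ libraries (y axis), with the 8 tested genes of the IL-12 and IL-18 axis marked and the line of equal values drawn. Of the marked genes, Il18r1 and Il18rap lie farthest below the line, Il12rb1 lies above it, and Ifng, Stat4 and Myd88 lie close to it.

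The genes behind the sort went with the labels: Tnfsf10, which encodes TRAIL, averaged 199 ± 13.2 RPKM (SD, n = 2) in the TRAIL+ and 7.10 ± 0.226 (SD, n = 2) in the CD49b+ libraries, and Itga2, which encodes CD49b, averaged 3.41 ± 2.62 and 44.5 ± 10.7. Klrb1c (NK1.1) and Ncr1 (NKp46) lay between 901 and 1253 RPKM in all 4 libraries. Libraries rested on 3786497 to 4232967 reads, inferred from the steps in which RPKM values move. The reads inferred for single rows summed to 4091685 to 4581041, above the depth of each library, and the reason was not tested. Of the 8 NK cell markers in the files, limma called 0, with 1 at an unadjusted p under 0.05 and 0 called by voom. Of 6 tested T-cell markers 5 were higher in TRAIL+ cells and Cd28 was lower, against 4.76% and 3.86% of all tested genes. The 10 of 13 listed markers found in the files, of which none was at 0 in all 4 libraries and 4 were at 0 in 1 library, summed to 887 and 1196 RPKM against 45.7 and 54.7, and most of the TRAIL+ sum was Cd3g (936 ± 176 against 8.88 ± 3.15 RPKM). Of 10 tested macrophage and monocyte markers, Ccr2 (78.6 ± 13.4 against 202 ± 19.0 RPKM) and Ly6c2 (23.2 ± 9.91 against 556 ± 53.0) were lower, and their list summed to 148 to 196 RPKM in TRAIL+ and 825 to 850 in CD49b+ libraries, with Marco at 0. These 2 genes made up most of the CD49b+ sums, and the list's median difference was 0.53, with 6 of the 10 above 0 and not past the threshold, such as C1qa (4.79 ± 0.583 against 0.653 ± 0.924 RPKM, limma adjusted p = 0.0549). Xcr1 of the dendritic cell list was higher and Klrg1 of the type 2 innate lymphoid cell list, which mature NK cells also express, was lower. Limma and voom made no call in the lists of B cells, type 3 innate lymphoid cells, neutrophils, mast cells, hepatocytes, endothelial and stellate cells or erythroid cells, where 3 genes had an unadjusted p under 0.05. Sums of RPKM were higher in replicate 1 in both groups for several lists. Neutrophil markers summed to 26.3 and 4.84 in TRAIL+ and 29.8 and 0.644 in CD49b+ replicates 1 and 2. For hepatocyte markers the sums were 20.7, 5.01, 23.2 and 1.53, and for erythroid markers 8.39, 2.12, 8.19 and 0.511. Lyz2 of the macrophage list stood at 81.9, 9.21, 122 and 8.87. Type 3 innate lymphoid cell sums went the other way, and mast cell sums did so in TRAIL+ libraries. The part of these cells in the differences below was not tested.

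**Figure D2:**
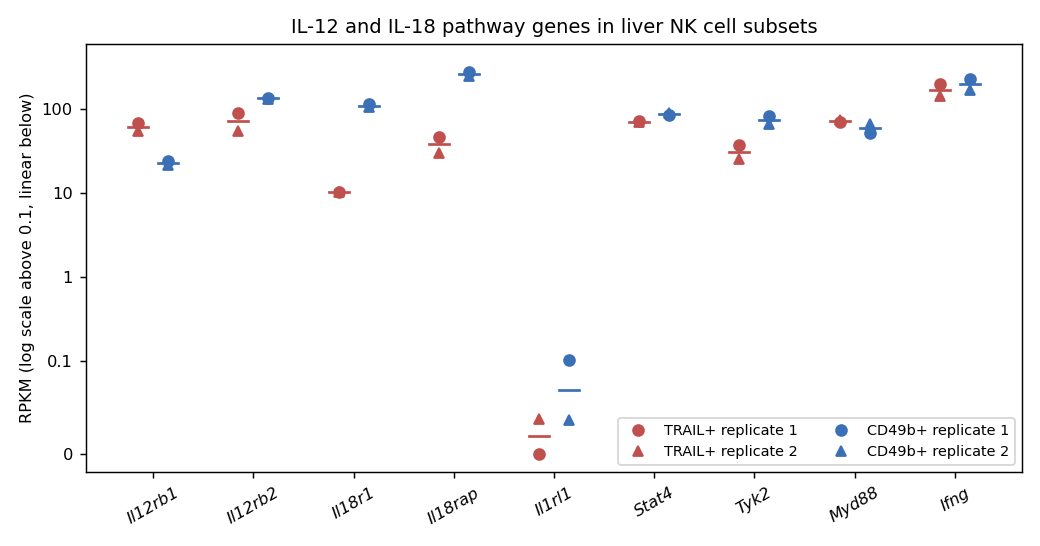
RPKM of the 9 genes in each of the 4 libraries (points; circles replicate 1, triangles replicate 2) with group means (bars), on an axis that is logarithmic above 0.1 and linear below. The subsets are apart for Il18r1 and Il18rap, cross over between Il12rb1 and Il12rb2, and overlap for Ifng, and Il1rl1 is near 0 throughout.

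Il18r1, the ligand-binding IL-18 receptor chain, stood at 10.3 RPKM in both TRAIL+ libraries and at 114 and 106 RPKM in CD49b+ replicates 1 and 2. These levels rested on 201 and 186 reads against 2321 and 2003. The TRAIL+ libraries were nearly identical, and both CD49b+ libraries were far above them with no overlap. The difference was -3.30 ± 0.15 (95% interval -3.69 to -2.92, limma adjusted p = 0.000565), the 50th in size among the 388 genes called lower. Leaving out each library in turn moved it from -3.36 to -3.25, and it stayed past the threshold in each case. The row for Il18r1 pools 3 RefSeq transcripts, so isoforms cannot be told apart.

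Il18rap, the accessory chain needed for signalling, stood at 47.1 and 30.3 RPKM in TRAIL+ replicates 1 and 2 and at 277 and 247 in CD49b+ replicates 1 and 2. The groups did not overlap, as in 7 of the 8 tested genes of the axis (all but Ifng) and in 46.8% of all tested genes, and the lowest CD49b+ library was far above the highest TRAIL+ library. The difference was -2.76 ± 0.24 (95% interval -3.37 to -2.15, limma adjusted p = 0.00294), with a range of -3.07 to -2.45 when 1 library was left out, past the threshold in each case. Il18rap was the most abundant of the 9 genes in CD49b+ cells. Within a library, Il18rap RNA was 4.57 and 2.95 times Il18r1 RNA in TRAIL+ and 2.42 and 2.33 times in CD49b+ replicates 1 and 2, so the accessory chain was the more abundant in all 4 libraries.

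Il1rl1 was close to absent in both subsets. It had 0 reads and 1 read in TRAIL+ replicates 1 and 2 and 3 reads and 1 read in CD49b+ replicates 1 and 2, at most 0.102 RPKM, and did not reach the minimum for testing. The ratio of its reads, TRAIL+ over CD49b+, per read of depth was 0.260, and counting error alone allows 0.0053 to 2.63 (exact 95% interval), so no difference was detectable at this depth. Among the markers of type 2 innate lymphoid cells, which are known for ST2, Il5 and Il13 were listed at 0 in all 4 libraries, and Gata3, which NK cells also express, stood at 32.8 ± 2.73 and 29.8 ± 0.870 RPKM.

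Il1rl1, Il18r1 and Il18rap are neighbours on mouse chromosome 1, in the order Il1r2, Il1r1, Il1rl2, Il1rl1, Il18r1, Il18rap, Slc9a4, Slc9a2, Mfsd9 among protein-coding genes of RefSeq (GRCm38.p6, whereas the deposited files use mm9). Only Il18r1 and Il18rap of these 9 neighbours were above 1.69 RPKM in any library. Mfsd9, at 0.920 to 1.69 RPKM, was the only other one tested, with a difference of -0.25 (limma adjusted p = 0.702). Il1rl2 lay between 0.404 and 0.843 RPKM, and Slc9a4 was listed at 0 in all 4 libraries. Apart from the IL-18 receptor pair and Mfsd9, the genes of this stretch were too low to compare.

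Sequence before the starts of Il18r1, Il18rap, Il12rb2 and Ifng is shown, from the RefSeq promoter table. Any part of these letters in the RNA differences was not tested. The search covered 250 bases before each start on both strands for 5 motifs: a T-box site (GGTGTGA), a RUNX site (TGTGGT), a STAT site (TTCNNNGAA), a κB-like site (GGG and CC with any 5 bases between) and an AP-1 site (TGANTCA), where N is any base. Capitals mark matches, which are descriptions of letters and not sites of binding. Il18r1 has 3 annotated starts, and the stretch before its last start that overlaps no annotated exon is given.
Il18r1 (GRCm38.p6, chr1:40465811-40465969, plus strand): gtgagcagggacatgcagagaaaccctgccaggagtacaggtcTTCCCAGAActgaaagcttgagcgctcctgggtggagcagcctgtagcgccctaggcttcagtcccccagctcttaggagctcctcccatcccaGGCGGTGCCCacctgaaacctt
Il18rap (GRCm38.p6, chr1:40515112-40515361, plus strand): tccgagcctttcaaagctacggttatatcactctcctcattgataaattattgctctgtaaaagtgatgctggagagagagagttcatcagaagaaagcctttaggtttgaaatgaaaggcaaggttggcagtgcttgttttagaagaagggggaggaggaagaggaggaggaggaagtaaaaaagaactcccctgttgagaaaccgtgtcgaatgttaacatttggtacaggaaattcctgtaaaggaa
Il12rb2 (GRCm38.p6, chr6:67376189-67376438, minus strand): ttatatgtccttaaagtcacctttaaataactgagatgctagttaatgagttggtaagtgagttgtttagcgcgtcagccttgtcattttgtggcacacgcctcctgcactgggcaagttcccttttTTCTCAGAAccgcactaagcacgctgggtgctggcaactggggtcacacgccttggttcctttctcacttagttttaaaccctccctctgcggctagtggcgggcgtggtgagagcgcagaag
Ifng (GRCm38.p6, chr10:118440796-118441045, plus strand): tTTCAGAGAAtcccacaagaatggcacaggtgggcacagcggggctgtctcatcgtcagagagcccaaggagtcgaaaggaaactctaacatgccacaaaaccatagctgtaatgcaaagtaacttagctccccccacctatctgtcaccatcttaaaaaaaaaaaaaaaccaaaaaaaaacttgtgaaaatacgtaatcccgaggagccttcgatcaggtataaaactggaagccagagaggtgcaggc
The Il18r1 stretch held a STAT match and a κB-like match, its whole window held 2 STAT matches and 1 κB-like match, and the windows of Il12rb2 and Ifng a STAT match each, whereas none of the 5 motifs was found in the Il18rap window or in the windows of the other 2 starts of Il18r1. Over all 32851 windows of the table, 7.02% held the STAT letters, 45.8% the κB-like letters, 3.33% the T-box letters, 14% the RUNX letters and 6.75% the AP-1 letters. The table had entries for 8 of the 9 genes. Among those not shown, the Myd88 window held a T-box match and a STAT match. The Tyk2 window and 1 Stat4 window held a κB-like match each, and 1 Il1rl1 window held a RUNX match.

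The IL-12 receptor chains did not move together. Il12rb1, which IL-12 and IL-23 receptors share, stood at 68.0 and 55.7 RPKM in TRAIL+ replicates 1 and 2 and at 24.0 and 21.8 in CD49b+ replicates 1 and 2. Both TRAIL+ libraries were above both CD49b+ libraries, a difference of 1.39 ± 0.18 (95% interval 0.94 to 1.83, limma adjusted p = 0.00887). With either CD49b+ library left out the call was lost, at differences of 1.45 without replicate 1 and 1.32 without replicate 2. Such a fit has fewer libraries and degrees of freedom. Here and below, a call lost in this way need not mean that it depended on the library left out. Il12rb1 was the 304th in size among the 478 genes called higher.

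Il12rb2, the chain that gives the receptor its link to STAT4, stood at 89.8 and 55.4 RPKM in TRAIL+ replicates 1 and 2 and at 137 and 134 in CD49b+ replicates 1 and 2. TRAIL+ libraries were both lower and differed more from each other than the CD49b+ libraries did, with a coefficient of variation of 33.5% against 1.88%. The difference of -0.93 ± 0.26 missed the threshold (95% interval -1.57 to -0.29, limma adjusted p = 0.1005). It was past the threshold without TRAIL+ replicate 1, the higher of its group, at -1.28 (adjusted p = 0.0027), and after a correction for gene length added after seeing the data (adjusted p = 0.0412). In RefSeq the span of Il12rb2 overlaps that of its neighbour Serbp1 at its end, and whether counting used strand is not given in the sources used here. Serbp1 stood at 97.3 to 103 RPKM in the 4 libraries.

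The balance between the chains differed in level between subsets. Il12rb2 RNA was 1.32 and 0.994 times Il12rb1 RNA in TRAIL+ replicates 1 and 2, and 5.71 and 6.12 times in CD49b+ replicates 1 and 2. The mean ratio was 5.11-fold larger in CD49b+ cells, and the 2 groups of libraries did not overlap. For 2 libraries against 2, the smallest two-sided p an exact permutation test can give is 0.333, so the ratios are given without a test. Set against the IL-18 receptor, Il12rb1 RNA was 6.60 and 5.43 times Il18r1 RNA in TRAIL+ cells and 0.210 and 0.205 times in CD49b+ cells, a 29.0-fold difference between the mean ratios. Like the other ratios here, this one restates the differences of the single genes and is not a separate result. Il12rb2 RNA was 1.91 and 1.83 times Il18rap RNA in TRAIL+ and 0.496 and 0.541 times in CD49b+ cells.

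**Figure D3:**
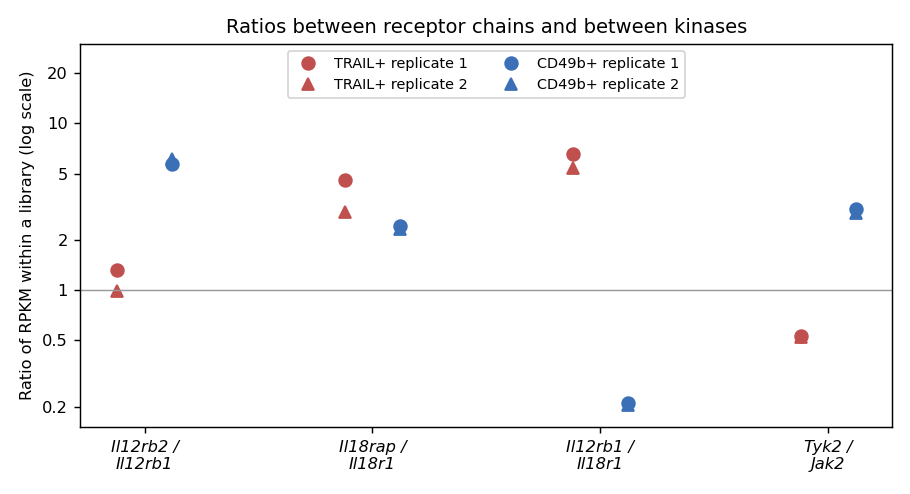
Ratios of RPKM between gene pairs within each library, on a log axis, with the line of equal RNA drawn (circles replicate 1, triangles replicate 2). Il12rb2 over Il12rb1 and Tyk2 over Jak2 are larger in CD49b+ cells, Il12rb1 over Il18r1 is larger in TRAIL+ cells, and Il18rap exceeds Il18r1 in all 4 libraries.

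Among the transducers, Tyk2, the kinase bound to IL-12Rβ1 and also to the type I interferon receptor, stood at 36.9 and 25.6 RPKM in TRAIL+ replicates 1 and 2 and at 81.9 and 67.1 in CD49b+ replicates 1 and 2. Replicate 1 was the higher in both groups, and the groups did not overlap. The difference was -1.24 ± 0.23 (95% interval -1.82 to -0.67, limma adjusted p = 0.0310). It no longer passed when CD49b+ replicate 1 (adjusted p = 0.212) or replicate 2 (0.0950) was left out, nor with no filter on low values (0.0588).

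Stat4, the factor that IL-12 activates, stood at 72.1 and 70.3 RPKM in TRAIL+ and 85.7 and 90.6 in CD49b+ replicates 1 and 2. Its libraries agreed closely within each group and the groups did not overlap, but the difference of -0.30 ± 0.15 (95% interval -0.68 to 0.07) missed the threshold (limma adjusted p = 0.367). Myd88, the adaptor of the IL-18 and IL-33 receptors, stood at 70.7 and 73.8 RPKM in TRAIL+ and 52.2 and 65.9 in CD49b+ replicates 1 and 2. Both TRAIL+ libraries were above both CD49b+ libraries, but the difference missed the threshold (0.30 ± 0.18, 95% interval -0.15 to 0.74, limma adjusted p = 0.475).

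Ifng stood at 200.4 and 142 RPKM in TRAIL+ and at 230 and 170 in CD49b+ replicates 1 and 2, on 653 to 1178 reads a library. The groups overlapped, and replicate 1 was the higher in both. The difference was -0.22 ± 0.25 (95% interval -0.85 to 0.41, limma adjusted p = 0.751), smaller than the spread between replicates, whose coefficient of variation was 23.9% in TRAIL+ and 21.3% in CD49b+ cells. The mean level of Ifng was above that of 96.6% of tested genes. The interval leaves room for a difference in either direction of the size that Stat4 showed.

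**Figure D4:**
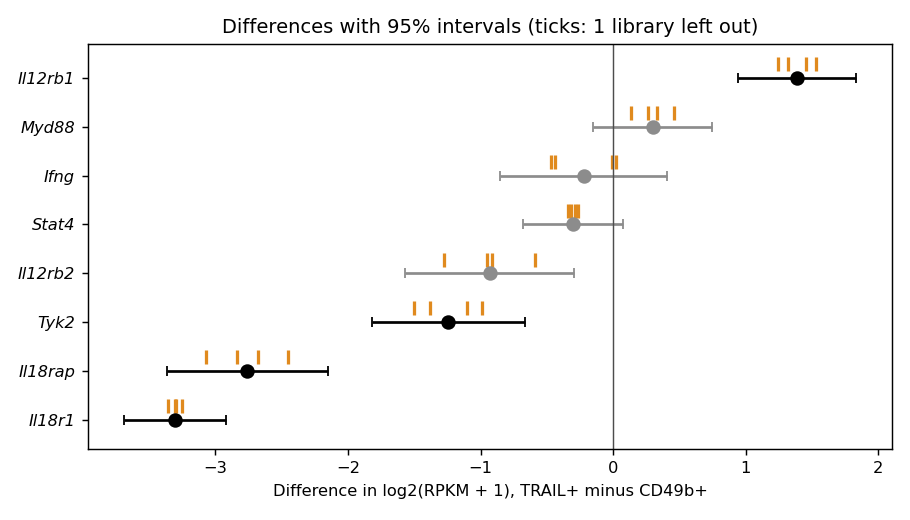
Difference in log2(RPKM + 1), TRAIL+ minus CD49b+, for the 8 tested genes with 95% intervals (black: adjusted p under 0.05; grey: not past it), and above each the 4 differences with 1 library left out (ticks). Il18r1 and Il18rap lie below -2, Tyk2 and Il12rb1 lie on opposite sides of 0, and the interval of Ifng spans 0.

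In order of RNA level, CD49b+ cells had Il18rap first, then Ifng, Il12rb2, Il18r1, Stat4, Tyk2, Myd88, Il12rb1 and Il1rl1, and no neighbours in this order overlapped between libraries. TRAIL+ cells had Ifng first, then Il12rb2, Myd88, Stat4, Il12rb1, Il18rap, Tyk2, Il18r1 and Il1rl1. There Il12rb2 overlapped with Myd88, Stat4 and Il12rb1 over its 2 libraries, Myd88 with Stat4, and Il18rap with Tyk2. Within each library Il18rap was above Tyk2, whereas the order of Il12rb2 and Il12rb1, and of Myd88 and Stat4, changed between the libraries. Il12rb1 was next to last in CD49b+ cells, and Il18r1 held that place in TRAIL+ cells.

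The other kinases and STAT proteins were examined as a list of 9 genes, all tested. Jak2, the partner kinase on IL-12Rβ2, rose in TRAIL+ cells, from 26.7 and 23.2 RPKM in CD49b+ to 69.3 and 49.1 in TRAIL+ replicates 1 and 2 (difference 1.20 ± 0.22, limma adjusted p = 0.0294). Jak1, which serves interferon and common gamma chain receptors, fell, with 241 and 162 RPKM in TRAIL+ against 522 and 423 in CD49b+ cells (-1.24 ± 0.26, adjusted p = 0.0441). The 2 kinases of the IL-12 receptor differed in opposite directions: Tyk2 RNA was 0.533 and 0.521 times Jak2 RNA in TRAIL+ and 3.07 and 2.89 times in CD49b+ replicates 1 and 2, a 5.65-fold difference between mean ratios. Jak2 no longer passed without CD49b+ replicate 1 (adjusted p = 0.118), without replicate 2 (0.204) or with no filter (0.0543), and Jak1 likewise (0.363, 0.178 and 0.0843), with quantile normalization (0.0784) and without the trend (0.0501). The remaining 7, among them Stat6 (70.5 ± 11.2 against 93.8 ± 12.5 RPKM), did not pass.

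Of the IL-12 family ligands and other receptor chains, 2 of 8 genes reached the test. Il27ra, a chain of the IL-27 receptor, rose, at 88.5 and 96.1 RPKM in TRAIL+ and 46.9 and 43.4 in CD49b+ replicates 1 and 2 (difference 1.01 ± 0.16, limma adjusted p = 0.0162, no longer past it without CD49b+ replicate 1 at 0.180 or replicate 2 at 0.249). Its partner Il6st, which encodes gp130, was near the minimum at 1.30 ± 0.263 and 1.25 ± 0.252 RPKM. Il23r, which pairs with IL-12Rβ1 in the IL-23 receptor, was listed at 0 in all 4 libraries, as were the ligand genes Il12a, Il12b and Il23a.

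Around the IL-18 receptor, 0 of 4 tested genes of the IL-1 family list were called by limma, 0 at an unadjusted p under 0.05 and 0 by voom. Sigirr, an inhibitory member of the receptor family, stood at 42.8 ± 4.63 and 34.3 ± 1.52 RPKM, and Il1rap, the accessory chain of the IL-1 and IL-33 receptors, at 3.42 ± 0.184 and 5.12 ± 0.551. Il18bp, the soluble decoy for IL-18, stood at 0.541 to 2.81 RPKM, and Il33 was at 0 in all 4 libraries. Downstream of MYD88, limma called 0 of 12 tested genes of the TIR adaptor, IRAK and TRAF6 list. At an unadjusted p under 0.05 there were 3, where the share over all tested genes was not worked out. Voom called 0 of the 12, and their median difference was -0.03. The most abundant of them were Tab2 (166 ± 31.4 against 99.2 ± 6.77 RPKM, difference 0.72 ± 0.20, limma adjusted p = 0.0973) and Peli1 (57.3 ± 7.99 against 47.3 ± 5.43). Tab2 passed without TRAIL+ replicate 2 (adjusted p = 0.0168) and after the gene length correction (0.0127).

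In the NF-κB list 1 of 15 tested genes was called by limma, against 8.62% of all tested genes. At an unadjusted p under 0.05, 4 were lower and 0 higher, and the median difference was -0.32. The share of all tested genes at that p was not worked out. Nfkbiz, an inducible nuclear IκB protein, fell, at 5.87 and 3.05 RPKM in TRAIL+ and 17.9 and 13.9 in CD49b+ replicates 1 and 2 (-1.67 ± 0.31, limma adjusted p = 0.0313). It no longer passed without CD49b+ replicate 1 (adjusted p = 0.151) or replicate 2 (0.0664), nor with no filter (0.0720). Tnfaip3, the A20 feedback enzyme, spanned 240 and 43.4 RPKM in the 2 TRAIL+ libraries, and Nfkbia stood at 91.6 ± 17.6 and 147 ± 28.9 RPKM. Of 17 tested GADD45 and stress kinase genes, Gadd45b rose (41.8 and 41.6 RPKM against 17.9 and 17.8, difference 1.18 ± 0.15, limma adjusted p = 0.00937). Its libraries were nearly identical within each group, and the call was lost with either CD49b+ library left out. GADD45B and GADD45G bind the kinase MEKK4 and act on the p38 pathway, through which IL-12 and IL-18 raise Ifng. The p38 gene Mapk14 stood at 55.1 to 63.5 RPKM in the 4 libraries. Jun, an immediate-early gene, stood at 457 and 178 RPKM in TRAIL+ and 361 and 351 in CD49b+ replicates 1 and 2. Fos, another such gene, stood at 494 and 286 against 700 and 797 RPKM. Its groups did not overlap, but the difference missed the threshold (-0.99 ± 0.31, limma adjusted p = 0.141).

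Of 18 tested genes for factors known to act on Ifng, 0 rose and 3 fell by limma, against 4.76% and 3.86% of all tested genes. Their median difference was -0.25. At an unadjusted p under 0.05, 4 were higher and 5 lower, and voom called 1 higher, Ikzf2, and 3 lower. Eomes stood at 2.34 ± 0.507 against 192 ± 10.2 RPKM and Zeb2 at 0.244 ± 0.264 against 24.7 ± 3.29, and Prdm1, which encodes the repressor Blimp-1, at 10.5 ± 1.52 against 27.4 ± 1.57. Tbx21, which encodes T-bet, did not pass (196 ± 0.929 against 310 ± 23.3 RPKM, difference -0.66 ± 0.17, limma adjusted p = 0.0843, and 0.0103 after the gene length correction), nor did Ets1, the most abundant of the list (347 ± 30.8 against 362 ± 22.4). Eomes RNA differed 81.9-fold between the subsets, and its part in the level of Ifng was not tested. Prdm1 no longer passed without CD49b+ replicate 1 (adjusted p = 0.135) or replicate 2 (0.100025).

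Feedback genes moved in both directions, with 3 of 16 tested genes higher and 1 lower, against 4.76% and 3.86% of all tested genes. Socs2 (44.6 ± 1.31 against 3.38 ± 1.20 RPKM, difference 3.41 ± 0.24) and Cish (147 ± 3.03 against 16.0 ± 0.753, 3.12 ± 0.15) rose most, with limma adjusted p-values of 0.00151 and 0.000605. Both encode SOCS-family inhibitors that STAT5 induces. Socs1, which restrains interferon gamma and IL-12 signals, rose 1.76-fold (adjusted p = 0.0360), and Socs3 fell 4.30-fold (0.0371). Socs1 no longer passed without CD49b+ replicate 1 (0.493) or replicate 2 (0.337), with median centring (0.0615) or without the trend (0.0580), nor Socs3 without CD49b+ replicate 1 (0.0977) or with no filter (0.0817).

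On the receiving side of interferon gamma, 1 of 8 tested genes rose and 2 fell, against 4.76% and 3.86% of all tested genes. Ifngr1, the ligand-binding receptor chain, fell from 537 and 627 RPKM in CD49b+ to 182 and 199 in TRAIL+ replicates 1 and 2 (-1.60 ± 0.19, limma adjusted p = 0.00688), and Irf8 fell (-2.78 ± 0.17, 0.000916). Gbp2, an interferon-induced GTPase, rose from 34.6 ± 1.36 to 74.6 ± 0.326 RPKM (1.09 ± 0.15, adjusted p = 0.0114). Without CD49b+ replicate 1 or 2, the calls of Ifngr1 (0.0658 and 0.107) and Gbp2 (0.140 and 0.179) were lost. Ifngr2, the signalling chain of that receptor, was at 0.122 to 1.06 RPKM and was not tested.

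Beside Ifng, 6 of 11 tested secreted products of NK cells rose and 1 fell by limma, against 4.76% and 3.86% of all tested genes. This list, like the others, was chosen with earlier results of these data known. Voom called 5 of its genes higher, without Csf2, and 1 lower. Il2 stood at 7.28 and 11.2 RPKM in TRAIL+ libraries and was listed at 0 in both CD49b+ libraries. Csf1 (13.6 ± 3.24 against 0.461 ± 0.328 RPKM), Xcl1 (1971 ± 547 against 335 ± 7.62) and Gzmb (4306 ± 366 against 1475 ± 173) were higher in TRAIL+ cells, as were Ltb and Csf2, and Prf1 was lower (320 ± 16.7 against 1837 ± 49.7). Ccl5, the most abundant of the list, stood between 7317 and 12464 RPKM in the 4 libraries. Xcl1 no longer passed without CD49b+ replicate 1 (limma adjusted p = 0.0693) or replicate 2 (0.0714), and neither did Gzmb (0.778 and 0.537), nor Gzmb with no filter (0.118) or median centring (0.0609).

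**Figure D5:**
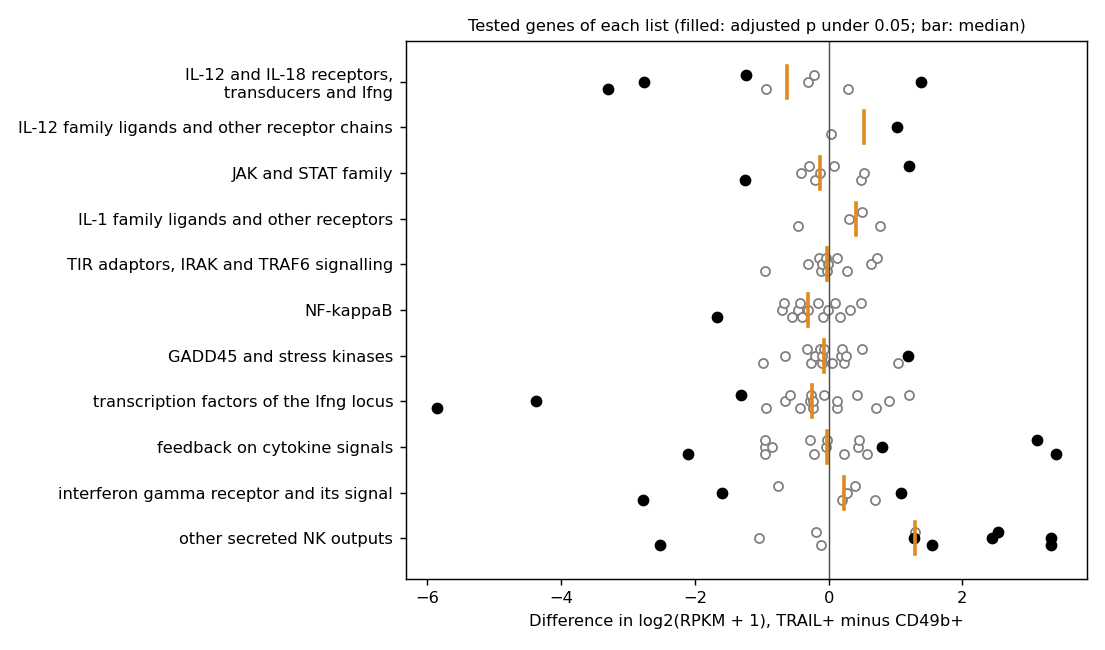
Differences in log2(RPKM + 1), TRAIL+ minus CD49b+, of the tested genes of each list (filled: adjusted p under 0.05; open: not past it), with list medians as bars. The 3 lists from the IL-1 family to NF-κB hold a single filled point, Nfkbiz, and the feedback genes, interferon gamma receptor genes and secreted products have filled points on both sides of 0.

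The profiles most like each called gene and Ifng were sought over the 4 libraries by the Euclidean distance between log2(RPKM + 1) values centred on each gene's mean, among the other 10046 tested genes. Tyk2 was nearest to Jak1 (distance 0.0434), then Klf4 and Ptch1. Il12rb1 was nearest to the IL-4 receptor gene Il4ra (0.0433), at 64.6 and 52.9 RPKM in TRAIL+ and 23.0 and 21.5 in CD49b+ replicates 1 and 2, then Icosl and Sec16b. Il18r1 was nearest to Steap3, Cd55 and Pald1 (0.122 to 0.148), all at much lower levels. They stood at 0.332 to 1.14 RPKM in TRAIL+ and 12.5 to 18.7 in CD49b+ libraries. The pseudocount of 1 understates the change of genes this low, and their fall in RPKM was steeper than that of Il18r1. Il18rap was nearest to Lpin1 (0.0511), Sbk1 and Pogk. The 2 IL-18 receptor genes were not each other's nearest, at a distance of 0.696, where Il18rap ranked 45th from Il18r1 and Il18r1 ranked 52nd from Il18rap. Ifng was nearest to Usp32, Pacsin2 and the pseudogene Smarca5-ps (0.0392 to 0.0540), none of them called. With 4 libraries many genes share a profile, so these likenesses are a description.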

How the data were processed

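RNA was sequenced from 4 libraries of polyA RNA from sorted mouse liver NK cells, grouped by the sample titles into 2 TRAIL+ and 2 CD49b+ libraries. The deposited values are RPKM, per the file headers. TopHat 1.4.1 and build mm9 are named in the submitters' processing notes. For the counter, annotation version, filters and strand setting, the value is not given in the sources used here. Of 21025 rows a file, 20661 were matched to RefSeq genes (GRCm38.p6) by accession, 191 by symbol and 65 by synonym.

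Whole reads were worked out from the RPKM steps: a whole gene length made the values of all libraries whole reads, within a relative tolerance of 1e-06, in 13679 of 13681 rows above 0. Of 10858 rows with 1 annotated length, 81.1% came within 10% of it. The counting interval covers counting error alone.

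The filter kept a gene that reached 1 RPKM in 2 or more libraries. On the log2(RPKM + 1) scale, limma 3.58.1 (R 4.3.3; lmFit, eBayes with a trended prior; 2 residual and 3.51 prior degrees of freedom) tested 10047 genes, with Benjamini-Hochberg adjustment over all of them. The pseudocount of 1 understates the change of low genes. With 2 libraries against 2 the smallest exact permutation p is 0.333. The genes named are the 9 genes of the axis and, from each list, up to 3 called genes a direction and the 2 most abundant; Ikzf2, Il18bp, Il23r, Il12a, Il12b, Il23a, Il33, Mapk14, Ltb, Csf2, Ifngr2, Serbp1, Xcr1, C1qa and genes of the Il18r1 neighbourhood were named after their values were seen. The genes, lists and ratios were chosen with earlier results of these data known. Alternatives were the pseudocount, the filter, scaling, the model, voom with trimmed-mean factors on the whole reads, leaving out libraries, a replicate block and, added after seeing the data, a gene length correction.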

Additional observations from a re-analysis of the deposited data

How the results depend on the processing

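Il18r1 and Il18rap stayed lower in TRAIL+ cells and past the threshold under each alternative run, with differences of -3.44 to -2.92 and -3.07 to -2.45. With 1 library left out, the counts over all genes ran from 245 to 777 higher and from 198 to 763 lower, and the count of the 9 genes called higher ran from 0 to 1. The replicate numbers are not said to mark shared mice or days, although replicates 1 and 2 deviated alike in both groups (correlation 0.563 over tested genes). With a replicate block, 1049 genes were higher and 833 lower, 4 of the 9 genes were lower, Il12rb2 included (adjusted p = 0.00556), and Tab2 (0.00611) and Tbx21 (0.0118) passed. The gene length correction gave 709 genes higher and 590 lower. The cause of these moves was not tested, beyond the fewer samples or degrees of freedom that leaving out a library brings.

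Over 49 named genes, 613 of 684 alternative values kept direction and side of the threshold, 38 lost a call, 17 gained one and 16 changed sign, each of a gene not called in the analysis of all 4 libraries. Il6st stood at -0.0024 with quantile normalization. With 1 library left out, the other signs changed within the ranges -0.0860 to 0.15 (Il6st), -0.49 to 0.27 (Ccl5), -0.34 to 0.12 (Klrb1c), -0.12 to 0.0592 (Ncr1), -0.66 to 0.61 (Dusp1), -0.15 to 0.0264 (Ets1), -0.25 to 0.0194 (Icam1), -0.47 to 0.0211 (Ifng), -0.99 to 0.36 (Jun) and -1.77 to 0.67 (Tnfaip3). Genes under about 1 RPKM, Il1rl1 among them, rest on too few reads to compare.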
